A study of Mus musculus with 17 samples.

Results

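The genes described here encode the respiratory chain of mitochondria, and they come from 2 genomes. They are the protein-coding rows of the count table whose symbols begin with mt-Nd, mt-Co, mt-Cyb, mt-Atp, Ndufa, Ndufb, Ndufc, Ndufs, Ndufv, Sdha, Sdhb, Sdhc, Sdhd, Uqcr, Cox4i, Cox5, Cox6, Cox7, Cox8 or Atp5. This rule took 111 of the 55471 genes in the table, 13 from the mitochondrial genome and 98 from the nucleus, and it used no measured value. The annotation spells the cytochrome b gene mt-Cytb, and Atp5o stands under 2 identifiers, 1 of which had no count in any library. The prefixes also take 8 assembly factors of complex I (Ndufaf genes), 4 of complex II (Sdhaf genes) and Atp5s, which is not a subunit of the enzyme.

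Total RNA of the hippocampus was sequenced in 17 libraries from mice of 3 to 6 months on a C57BL/6J background. CBP-ifKO mice carried floxed Crebbp alleles and the Camk2a-creERT2 transgene, whose promoter limits recombination to forebrain excitatory neurons, so that these cells express a truncated CBP while the other cells of the tissue keep the intact gene. Controls were littermates that lacked the transgene according to the methods, although the labels name creERT2 for them too, and tamoxifen was given 5 times to both genotypes. Sal mice had no kindling and were given saline on the last day. PTZ0 and PTZ45 mice were kindled with the convulsant pentylenetetrazole (PTZ), and on the last day PTZ0 mice received saline and PTZ45 mice 45 mg/kg PTZ, 45 min before the tissue was taken. Each group had 3 libraries, except Control PTZ45 with 2. The Sal libraries came from individual males, and whether the other libraries came from individual mice was not stated, so p-values measure the spread between libraries. The libraries held 5831992 to 18735643 counts. Crebbp, the targeted gene, had 1824 to 2429 normalized counts in controls and 1061 to 1337 in CBP-ifKOs. Esr1, part of which is fused to Cre in the transgene, had 40.99 to 77.8 in controls and 703.4 to 940.7 in CBP-ifKOs, so no library went against its label. All 7 markers of excitatory neurons were present in every group.

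The design ties the sequencing lanes, given at the end of the library names, to the groups. Control Sal and Control PTZ0 were on lane 3, Control PTZ45 and CBP-ifKO Sal on lane 4, and CBP-ifKO PTZ0 and CBP-ifKO PTZ45 on lane 5. Each comparison of genotypes within a treatment therefore also compares 2 lanes, and the genotype and the lane cannot be told apart there. Kindling in controls (PTZ0 against Sal) and the last injection in CBP-ifKOs (PTZ45 against PTZ0) were each compared within 1 lane. The other comparisons of treatments crossed lanes, so treatment and lane cannot be told apart there. One pair of replicates stood apart. CBP-ifKO Sal replicates 1 and 3 differed by 16.04 in chi-square over its degrees of freedom, against 2.16 to 7.67 in all other pairs of replicates. Replicate 2 lay nearer to replicate 3 (3.69) than to replicate 1 (5.60), so this measure does not say which of them is unusual, and the Sal results of CBP-ifKOs are given without each.

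Complexes I to IV pass electrons from NADH and succinate to oxygen and, at complexes I, III and IV, pump protons, and complex V (ATP synthase) uses the proton gradient to make ATP. The mitochondrial genome encodes core subunits of complexes I, III, IV and V, is transcribed as long precursors from both strands and is cut into single RNAs, whereas nuclear genes encode all of complex II, the remaining subunits of the others and the machinery that transcribes mitochondrial DNA. In neurons most ATP comes from this chain, and both genomes have to supply subunits for the same complexes.

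Nearly all of the counts from the mitochondrial genome that belong to proteins fell on 7 of its 13 genes. In GRCm38 mt-Nd1 lies at chrM:2751-3707, mt-Nd2 at chrM:3914-4951, mt-Co1 at chrM:5328-6872, mt-Nd4 at chrM:10167-11544, mt-Nd5 at chrM:11742-13565 and mt-Cytb at chrM:14145-15288, all on the plus strand, and mt-Nd6 at chrM:13552-14070 on the minus strand. Between mt-Co1 and mt-Nd4, the genes mt-Co2, mt-Atp8, mt-Atp6, mt-Co3 and mt-Nd4l had 0 counts in the 17 libraries together and mt-Nd3 had 6. These genes fill chrM:7013-10173, and a stretch of chromosome 1 holds annotated copies of all of them except mt-Atp8. The reference sequence of the first 60 bases of mt-Co2 and of its copy Gm28661 is shown because a read of 50 bases from here fits both places. The mitochondrial bases are chrM:7013-7072 on the plus strand and the nuclear ones chr1:24615506-24615565 on the minus strand, and 0 bases differ.
mt-Co2: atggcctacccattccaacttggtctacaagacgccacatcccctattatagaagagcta
Gm28661: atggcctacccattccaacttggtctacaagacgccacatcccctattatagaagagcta
The copy of mt-Co1 ends inside the gene. It is shown at its far edge, chrM:6381-6440 on the plus strand against chr1:24616138-24616197 on the minus strand, where 6 bases differ, given in capitals.
mt-Co1: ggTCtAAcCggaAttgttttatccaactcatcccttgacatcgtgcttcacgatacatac
Gm29216: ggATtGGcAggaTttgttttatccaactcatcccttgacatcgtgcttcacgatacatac

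The study kept only reads with a mapping quality above 10, which drops a read that fits 2 places equally well. Of all stretches of 50 bases, the read length, all in mt-Co2 and 99.9% in mt-Co3, 99.5% in mt-Atp6, 98.8% in mt-Nd4l and 98.0% in mt-Nd3 also occur in another annotated gene, and the copies themselves had 0 to 34 counts each over all libraries. The counts of these 5 genes are therefore no measure of their RNA. For mt-Atp8, which lies among them, 0.0% of the stretches occurred in another annotated gene, and unannotated copies were not searched, so the source of its 0 was not tested. Complex V has no mitochondrial gene with counts in the table. Shared stretches made up 62.2% of mt-Nd4, 51.1% of mt-Co1, 8.2% of mt-Nd2 and 7.6% of mt-Nd5, so the levels of mt-Nd4 and mt-Co1 are too low by an unknown share, while the same bases are lost in every library. In mt-Nd1, mt-Nd6 and mt-Cytb no such stretch was found. Whether strand was used in counting is not given in the sources used here, so counts of mt-Nd6 may include RNA of the opposite strand.

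Of the genes with counts, mt-Co1, the catalytic core of complex IV, held 41.2% of the mitochondrial member counts, mt-Cytb of complex III 18.9% and mt-Nd1 of complex I 17.8%. mt-Nd4 held 7.98%, mt-Nd5 7.07%, mt-Nd2 5.89% and mt-Nd6 1.16%. Per kb of gene, the mean over 17 libraries was 46882 normalized counts for mt-Co1, 32672 for mt-Nd1, 29059 for mt-Cytb, 10159 for mt-Nd4, 9986 for mt-Nd2, 6815 for mt-Nd5 and 3912 for mt-Nd6. Every one of these 7 levels lay above that of every nuclear member. The mitochondrial rRNAs mt-Rnr1 and mt-Rnr2, which are no members, together took 4.42% to 7.23% of the counts of a library.

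**Figure D1:**
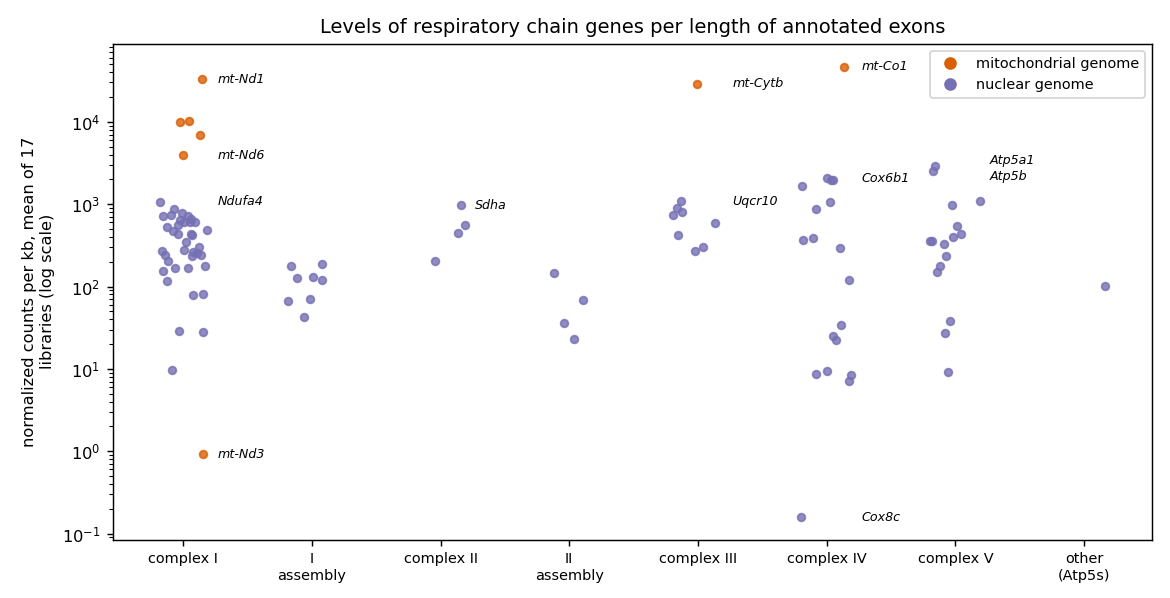
Mean level of each member over 17 libraries, as normalized counts per kb of annotated exon on a log axis, by complex and class, with mitochondrial genes in orange and nuclear genes in violet. The 6 members listed at 0 cannot be drawn on this axis, and mt-Nd3 with 6 counts in all is a gene whose reads could not be placed. The 7 counted mitochondrial genes lie above all nuclear ones.

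The nuclear members spanned a wide range of levels. Per kb, the highest in each complex were Ndufa4 at 1069 and Ndufb9 at 884.7 under the complex I symbols, Sdha at 975.5 and Sdhd at 552.5 in complex II, Uqcr10 at 1077 and Uqcrh at 889.4 in complex III, Cox6b1 at 2069 and Cox6a1 at 1987 in complex IV, and Atp5a1 at 2907 and Atp5b at 2552 in complex V. Atp5a1 and Atp5b encode the alpha and beta subunits of the catalytic head of ATP synthase and held 11% and 13.04% of all nuclear member counts. Ndufa4 is kept here under its symbol, although its product is now counted with complex IV. A mean of at least 50 normalized counts was reached by 86 of the 98 nuclear members. Isoforms known from muscle, lung or testis were near the floor, with means of 17.1 normalized counts for Cox6a2, 12.1 for Cox7a1, 9.28 for Cox6b2, 7.44 for Cox4i2, 3.85 for Cox7b2, 3.16 for Cox8b and 0.0724 for Cox8c. The assembly factors were less abundant than the subunits, with medians of 124 per kb for those of complex I and 52.2 for those of complex II, against 325 and 500 for the subunits. Low values of Atp5g2, Cox7c, Ndufs5, Sdhaf1 and Ndufaf2 are uncertain, since 38.3%, 22.1%, 21.7%, 69.0% and 64.1% of their stretches of 50 bases also occur in another gene.

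The balance of the 2 genomes was taken as the ratio of their summed counts within each library. Mitochondrial members held 1.26% to 1.77% of the counts of a library and nuclear members 0.620% to 0.765%. In Control Sal the log2 ratio was 0.829, 0.997 and 1.03, in Control PTZ0 it was 0.83, 0.90 and 0.90, and in Control PTZ45 it was 1.12 and 1.47. In CBP-ifKO Sal it was 1.23, 1.24 and 0.83, in CBP-ifKO PTZ0 1.05, 1.24 and 1.03, and in CBP-ifKO PTZ45 1.25, 1.29 and 1.14. The 3 Control PTZ0 libraries thus lay together at the low end and below all libraries of CBP-ifKO PTZ0 and of both PTZ45 groups, whereas the Sal groups of the 2 genotypes overlapped through CBP-ifKO Sal replicate 3, the lowest library of all.

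By group the log2 ratio was 0.95 ± 0.11 (SD, n = 3) in Control Sal, 0.88 ± 0.04 (SD, n = 3) in Control PTZ0, 1.297 ± 0.244 (SD, n = 2) in Control PTZ45, 1.10 ± 0.24 (SD, n = 3) in CBP-ifKO Sal, 1.11 ± 0.11 (SD, n = 3) in CBP-ifKO PTZ0 and 1.23 ± 0.08 (SD, n = 3) in CBP-ifKO PTZ45. The genotypes differed by 0.23 in PTZ0, above the pooled SD of 0.085, and by 0.14 in Sal and -0.07 in PTZ45, below the pooled SDs of 0.18 and 0.15. Without CBP-ifKO Sal replicate 3 the difference in Sal was 0.28, with both remaining CBP-ifKO libraries above all 3 controls, and without replicate 1 it was 0.08. In PTZ45 the sign turned, to 0.10, without Control PTZ45 replicate 2. With the last PTZ injection the ratio was higher than in PTZ0 by 0.42 in controls, against a pooled SD of 0.14, and by 0.12 in CBP-ifKOs, against 0.096. The difference in controls was 0.25 without Control PTZ45 replicate 2 and 0.59 without replicate 1. Between PTZ0 and Sal the ratio differed by -0.08 in controls and 0.009 in CBP-ifKOs, within the pooled SDs of 0.082 and 0.18, and without CBP-ifKO Sal replicate 3 the latter was -0.13, against 0.07 without replicate 1. Between PTZ45 and Sal it differed by 0.34 in controls, against a pooled SD of 0.17, and by 0.13 in CBP-ifKOs, against 0.17, where it was -0.009 without replicate 3 and 0.19 without replicate 1. No test was made of the ratio, since it is a sum over chosen genes.

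The ratio also differed between the lanes, which are tied to the groups. It was 0.92 ± 0.08 (SD, n = 6) on lane 3, 1.18 ± 0.23 (SD, n = 5) on lane 4 and 1.17 ± 0.11 (SD, n = 6) on lane 5. With the lane as a term beside genotype and treatment, the difference of the genotypes over all treatments moved from 0.10 to -0.16. Since that fit has as many coefficients as groups, its value is the difference in Sal plus that in PTZ45 less that in PTZ0. Lane and an interaction of genotype and treatment cannot be told apart in it. Without the lane term the difference of the genotypes was 0.043 when Control PTZ45 replicate 1 was left out and 0.16 when replicate 2 was. The mean GC content of the counted genes, weighted by counts, was 47.69% to 47.86% in Control PTZ0, 47.45% to 47.86% in CBP-ifKO PTZ0, 47.11% to 47.48% in Control PTZ45 and 47.08% to 47.39% in CBP-ifKO PTZ45. Mitochondrial members are poorer in G and C than nuclear ones, with medians of 37.1% and 50.3%. Values corrected for GC content are therefore given for the mitochondrial genes called with all libraries and no replicate block.

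**Figure D2:**
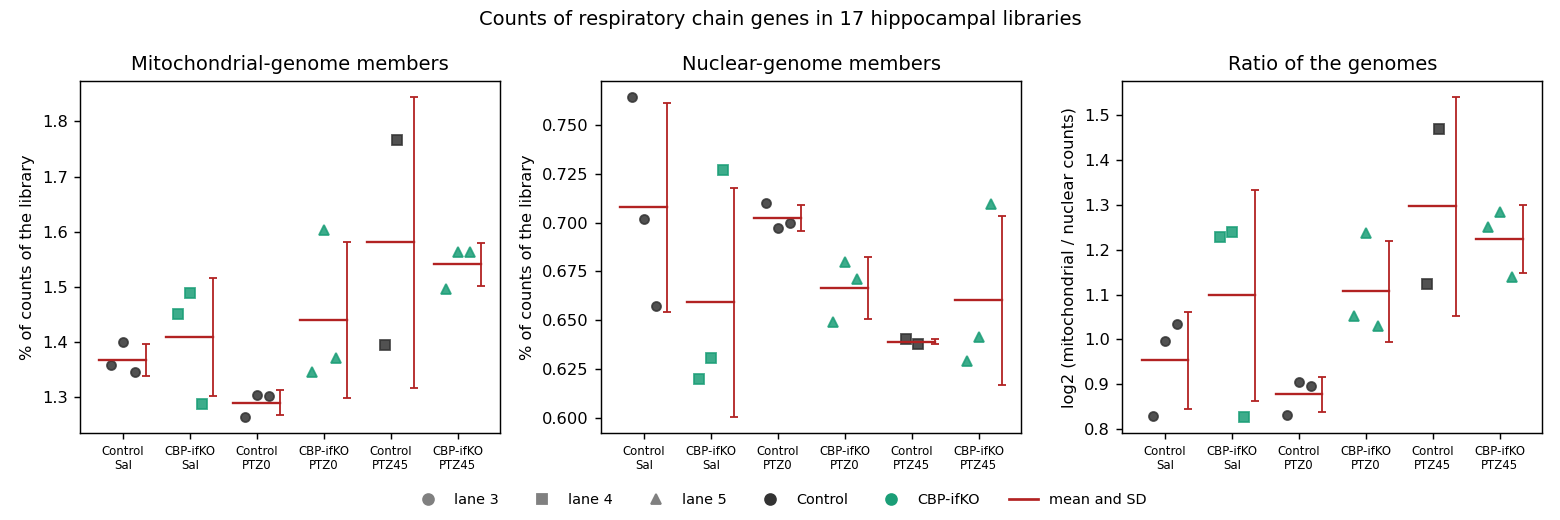
Share of the library's counts on mitochondrial members (left) and nuclear members (middle), in percent, and the log2 ratio of the 2 sums (right), for each of 17 libraries in 6 groups. Symbols give the lane, colours the genotype, and the bars the mean and SD of each group, with axes that do not start at 0. The 3 Control PTZ0 libraries lie together between 0.83 and 0.90, and the highest ratio is 1.47 in Control PTZ45.

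The genotypes were first compared over all treatments, with treatment as a term. Small differences towards lower levels in CBP-ifKOs prevailed among nuclear members, while mitochondrial members were not called. Of 93 nuclear members with an adjusted p, DESeq2 called 18 lower and 0 higher, where 11.5% of all genes tested were called lower and 7.76% higher. Their median log2 fold change was -0.10, and 82.8% lay below 0, against a median of 0.01 and 47.7% over all genes tested. Of the 7 mitochondrial genes 0 were called, with 0 at an unadjusted p under 0.05 and 0 in edgeR, a median of 0.10 and a range from -0.05 in mt-Co1 to 0.15 in mt-Nd5. The called genes belonged to all 5 complexes, with 5 of 38 members in complex I, 1 of 4 in complex II, 4 of 8 in complex III, 5 of 18 in complex IV and 3 of 17 in complex V, and 0 of 12 assembly factors was called, with 0 at an unadjusted p under 0.05.

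Ndufa5, a subunit of the arm of complex I that reaches into the matrix, had the largest difference and was the only one of the 18 whose genotypes did not overlap. The gene lies at chr6:24518666-24528013 on the minus strand. Its promoter at chr6:24527477-24527776 on the minus strand, taken from RefSeq for GRCm38.p6 like the one after it, is shown since this was the member with the clearest difference. It is 1 of 2 listed starts, and neither promoter held a match to the 5 motifs described further on.
Ndufa5: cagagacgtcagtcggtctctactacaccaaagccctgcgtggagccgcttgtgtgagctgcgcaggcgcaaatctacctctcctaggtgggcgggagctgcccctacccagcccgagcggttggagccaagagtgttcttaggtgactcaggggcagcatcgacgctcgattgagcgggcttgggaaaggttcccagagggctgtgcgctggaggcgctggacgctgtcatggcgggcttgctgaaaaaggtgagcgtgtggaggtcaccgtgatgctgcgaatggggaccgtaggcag
In controls Ndufa5 had 769.8, 744.9 and 732.3 normalized counts in Sal, 733.8, 749.6 and 773.2 in PTZ0 and 753.5 and 847.5 in PTZ45. In CBP-ifKOs it had 623.9, 574.8 and 689.5 in Sal, 527.2, 620.5 and 520.4 in PTZ0 and 587.7, 568.8 and 690.9 in PTZ45. All 9 CBP-ifKO libraries lay below all 8 control libraries. DESeq2 put the difference in log2 at -0.35, with an SE of 0.06 and an adjusted p of 2.21e-08.

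Atp5k, a small subunit of the membrane part of ATP synthase, lies at chr5:108433244-108434448 on the minus strand. Its promoter, chr5:108434350-108434649 on the minus strand, is shown with matches to the NRF1 and ETS motifs in capitals.
Atp5k: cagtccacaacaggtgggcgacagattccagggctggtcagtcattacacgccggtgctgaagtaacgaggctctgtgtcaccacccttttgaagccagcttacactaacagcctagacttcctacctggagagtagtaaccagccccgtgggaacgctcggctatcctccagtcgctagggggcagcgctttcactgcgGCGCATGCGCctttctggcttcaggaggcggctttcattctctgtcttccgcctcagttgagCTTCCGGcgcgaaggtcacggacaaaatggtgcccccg
Atp5k had 758.1, 673.5 and 653.6 normalized counts in Control Sal and 548.3, 487.6 and 634.0 in CBP-ifKO Sal. It had 630.3, 661.8 and 677.9 in Control PTZ0 and 518.7, 519.3 and 531.5 in CBP-ifKO PTZ0. In Control PTZ45 it had 626.1 and 633.4 and in CBP-ifKO PTZ45 577.2, 426.8 and 617.8. Within each treatment the CBP-ifKO libraries lay below the controls, and the ranges overlapped only across treatments. Over all treatments Atp5k was called at -0.29 in log2 (SE 0.06, adjusted p 0.000142).

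Next in size were Cox5a and Cox5b, both nuclear subunits of complex IV, at log2 fold changes of -0.26 (SE 0.08, adjusted p 0.0108) and -0.24 (SE 0.08, adjusted p 0.0131), and Uqcr10, a small subunit of complex III, at -0.22 (SE 0.06, adjusted p 0.0062). Uqcr10 averaged 684.9 ± 95.6 normalized counts over the controls (SD, n = 8), and the CBP-ifKOs averaged 578.9 ± 53.8 (SD, n = 9). Uqcrh, the hinge protein of complex III, was called at -0.20 (SE 0.05, adjusted p 0.000405). Further called genes, named here after their values were seen, were Ndufa9, Ndufa10 and Ndufb10 of complex I, Sdhb of complex II, Uqcrq and Uqcrc2 of complex III, Cox4i1, Cox6a1 and Cox7a2 of complex IV and Atp5j and Atp5o of complex V, with log2 fold changes from -0.21 to -0.13. In Atp5o, Uqcrc2 and Cox5b 41.6%, 17.6% and 11.9% of the stretches of 50 bases also occur in another gene, so their counts are uncertain. Atp5b, Atp5a1 and Sdha, which held the largest shares of the nuclear member counts, were not called.

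With the lane as a term 0 members were called, and 135 genes in all against 3606. The log2 fold changes of Cox5b, Sdhb and Atp5o then turned to just above 0. That fit has as many coefficients as groups, so it assumes that genotype and treatment do not interact. Lane and such an interaction cannot be told apart in it. Of the 18 calls, 11 were lost in that fit alone of 24 alternatives, among them those of Ndufa5, Atp5k and Cox4i1. Without Control Sal replicate 1 there were 11 calls, without CBP-ifKO Sal replicate 1 there were 12, and leaving out CBP-ifKO PTZ45 replicate 3 gave 27. In the same comparison 2 of 6 astrocyte markers, 1 of 4 endothelial markers and 2 of 5 interneuron markers were called lower, where 11.5% of all genes were. Of 6 oligodendrocyte, 5 microglia and 10 choroid plexus markers 0 were called. The summed level of the interneuron markers ran from 6231 to 6607 normalized counts in the control groups and from 5544 to 6243 in the CBP-ifKO groups, while of 7 excitatory neuron markers 1 was called higher and 2 lower. Their part in the result was not tested. In bulk tissue, fewer cells of a type and less RNA per cell cannot be told apart.

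**Figure D3:**
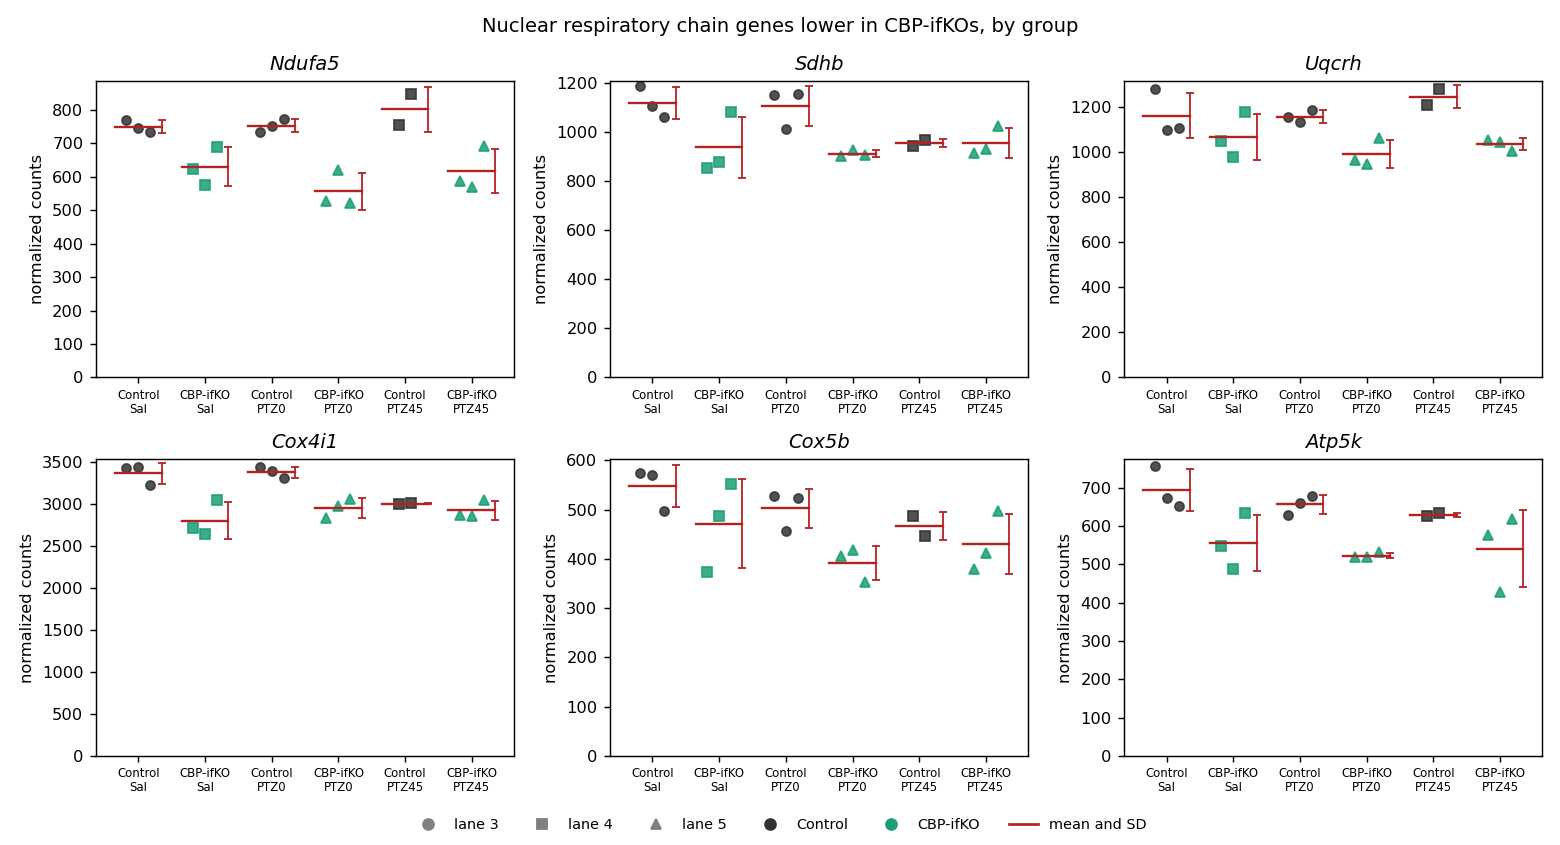
Normalized counts of 6 nuclear members from 5 complexes in each of 17 libraries, by group, with symbols for the lane, colours for the genotype and bars for the mean and SD. Ndufa5 is lower in all 9 CBP-ifKO libraries than in all 8 control libraries, while the other 5 genes overlap. Cox4i1 and Sdhb were chosen after their values were seen.

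Within single treatments members were called for the genotype in PTZ0 alone when each treatment was fitted by itself, and whether the difference in nuclear members varied with treatment is given by the interactions. In kindled mice that received saline, DESeq2 called 4 mitochondrial genes higher in CBP-ifKOs, where 1.43% of all genes tested were called higher, and 6 nuclear genes lower, where 5.25% were called lower, out of 7 and 86 members with an adjusted p. The median log2 fold change was 0.28 for mitochondrial members, -0.11 for nuclear members and 0.0006 for all genes tested, and 84.9% of the nuclear members lay below 0, against 49.9% of all genes.

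The 4 called mitochondrial genes, mt-Nd2, mt-Nd4, mt-Nd5 and mt-Nd6, all encode membrane subunits of complex I. mt-Nd5 had 9880, 10130 and 10482 normalized counts in Control PTZ0 and 14078, 12406 and 12351 in CBP-ifKO PTZ0. The groups did not overlap, and DESeq2 put the difference at 0.35 in log2 (SE 0.06, adjusted p 8.49e-07). mt-Nd6, the one gene here on the opposite strand, had 1590, 1612 and 1585 in controls and 1847, 2216 and 2179 in CBP-ifKOs, at 0.39 (SE 0.08, adjusted p 3.21e-05). mt-Nd4 had 11785, 11920 and 11944 in controls and 14634, 16055 and 13245 in CBP-ifKOs, at 0.30 (SE 0.07, adjusted p 0.000233). The 3 control libraries were nearly alike in each of these genes, and every CBP-ifKO library was above them. mt-Nd2 had 8562, 8715 and 8437 in controls and 10693, 11132 and 9383 in CBP-ifKOs, at 0.28 (SE 0.06, adjusted p 0.000632).

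The other mitochondrial genes differed less. mt-Cytb had 28754, 30300 and 29504 normalized counts in Control PTZ0 and 32231, 36287 and 31256 in CBP-ifKO PTZ0, with no overlap but an adjusted p of 0.0577. mt-Nd1 had 28820, 29124 and 29470 in controls and 26521, 35381 and 27043 in CBP-ifKOs, with the controls inside the CBP-ifKO range and a log2 fold change of 0.03 (adjusted p 0.949). mt-Co1 was at 0.05 (adjusted p 0.906), with 66573, 68919 and 69353 in controls and 62059, 83542 and 66015 in CBP-ifKOs. CBP-ifKO PTZ0 replicate 2 was the highest library in both genes. After the GC correction mt-Nd4, mt-Nd5 and mt-Nd6 kept their calls at 0.21, 0.27 and 0.28, and mt-Nd2, at 0.19, had an adjusted p of 0.0687. In 1 fit of all 17 libraries with 6 groups none of the 4 was called, and the highest adjusted p was 0.248, for mt-Nd5. The log2 fold changes in that fit were 0.28, 0.30, 0.35 and 0.38 for mt-Nd2, mt-Nd4, mt-Nd5 and mt-Nd6, about as large as before, while the SE of mt-Nd5 was 0.17.

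Among the 6 nuclear genes Ndufa5 again stood first, at -0.43 (SE 0.10, adjusted p 0.000324), and it was the one member called lower that kept its call in all 13 alternatives. Cox5b had 527.6, 456.8 and 523.7 normalized counts in Control PTZ0 and 405.4, 417.2 and 352.5 in CBP-ifKO PTZ0, at -0.37 (SE 0.11, adjusted p 0.0207). Atp5k followed at -0.33 (SE 0.09, adjusted p 0.00926), with a spread of only 518.7 to 531.5 over the CBP-ifKO libraries. Sdhb, the iron-sulphur subunit of complex II, had 1153, 1011 and 1156 in controls and 900.9, 928.9 and 908.4 in CBP-ifKOs, at -0.28 (SE 0.08, adjusted p 0.0136). In all 6 genes the CBP-ifKO libraries lay below the control libraries without overlap. Cox7a2 of complex IV was called at -0.24 (adjusted p 0.0453), a call lost in 10 of 13 alternatives. Cox4i1, an early-assembling subunit of complex IV named after its values were seen, was called at -0.19 (adjusted p 0.0218), lost in 8 of 13. The calls of Cox5b, Sdhb and Atp5k were lost in 6, 5 and 6 of 13. Without Control PTZ0 replicate 1 or replicate 3 there were 5 calls, 1 of them nuclear, and leaving out CBP-ifKO PTZ0 replicate 3 gave 6, again with 1 nuclear. Of 6 oligodendrocyte markers 2 were called lower in this comparison, with a summed level of 29487 to 32087 in controls and 23855 to 30135 in CBP-ifKOs, and their part in the result was not tested. The 10 choroid plexus markers, of which 0 were called, ran from 3554 to 41123 in controls and from 2528 to 57121 in CBP-ifKOs.

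In Sal 0 members were called by DESeq2, with 9 nuclear members at an unadjusted p under 0.05 and 0 called in edgeR, where 2.04% of all genes were called in either direction. The median was -0.13 over 87 nuclear members and 0.15 over 7 mitochondrial ones. Ndufa5, at -0.25 (adjusted p 0.301), and Atp5k, at -0.31 (adjusted p 0.192), did not overlap between the genotypes. Without CBP-ifKO Sal replicate 1 there were also 0 calls, and the result turned on replicate 3. That library had 9525 normalized counts of mt-Nd5, against 15276 and 14876 in replicates 1 and 2 and 10059, 12141 and 12158 in Control Sal. Without it 14 members were called, with mt-Nd2, mt-Nd4, mt-Nd5 and mt-Nd6 higher at 0.28, 0.31, 0.39 and 0.38 and 10 nuclear genes lower, from Atp5k at -0.42 and Ndufa11 at -0.47 to Ndufv1 at -0.29, which were named after their values were seen. These 14 rest on 2 CBP-ifKO libraries, and 620 genes in all were called then, against 306. CBP-ifKO Sal replicate 1, which is kept among these 2, stood out by its choroid plexus markers, at 74827 normalized counts against 2828 and 2881 in the replicates beside it.

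In PTZ45 0 members were called by DESeq2, with 4 nuclear and 2 mitochondrial members at an unadjusted p under 0.05 and 0 in edgeR, where 3.07% of all genes were called. Here the mitochondrial genes pointed the other way, with a median of -0.17 and all 7 below 0. mt-Nd6 had 2447 and 2767 normalized counts in Control PTZ45 and 2406, 2317 and 1973 in CBP-ifKO PTZ45, a log2 fold change of -0.22 (adjusted p 0.375). mt-Nd2, at -0.19 (adjusted p 0.329), did not overlap either. After the GC correction mt-Nd6 was at -0.15 and mt-Nd2 at -0.13. The nuclear median was -0.02 over 88 members. Ndufa5 was at -0.38 (adjusted p 0.0793), with all 3 CBP-ifKO libraries below both controls.

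The last PTZ injection went with higher levels of mitochondrial genes in control mice. Against PTZ0, DESeq2 called mt-Nd2, mt-Nd4, mt-Nd5, mt-Nd6 and mt-Cytb higher in Control PTZ45 and 0 nuclear members in either direction, where 1.18% of all genes were called higher. The nuclear members held 15 at an unadjusted p under 0.05 and 0 called in edgeR, and 72.5% of them lay below 0, against 50.4% of all genes. The medians were 0.45 over 7 mitochondrial members, -0.08 over 91 nuclear members and -0.002 over all genes.

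mt-Nd6 rose from 1590, 1612 and 1585 to 2447 and 2767 normalized counts, at 0.71 in log2 (SE 0.08, adjusted p 3.84e-17). mt-Nd2 rose from 8562, 8715 and 8437 to 11780 and 13526, at 0.56 (SE 0.07, adjusted p 1.82e-14), and mt-Nd5 from 9880, 10130 and 10482 to 14220 and 14983, at 0.52 (SE 0.06, adjusted p 9.48e-17). Both PTZ45 libraries were above all 3 PTZ0 libraries in these genes. mt-Nd4 rose by 0.45 (SE 0.06, adjusted p 1.54e-11) and mt-Cytb, the electron carrier core of complex III, from 28754, 30300 and 29504 to 34720 and 42805, by 0.39 (SE 0.08, adjusted p 4.78e-05). For mt-Nd1 and mt-Co1 the PTZ45 libraries lay apart, at 30495 and 42627 for mt-Nd1 and at 69543 and 97568 for mt-Co1, and the log2 fold changes of 0.33 and 0.29 had adjusted p-values of 0.668 and 0.749. Control PTZ45 replicate 2 was the higher one in all 7 genes.

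After the GC correction the 5 calls remained, with smaller log2 fold changes of 0.35 for mt-Nd2, 0.25 for mt-Nd4, 0.34 for mt-Nd5, 0.48 for mt-Nd6 and 0.24 for mt-Cytb. The calls of mt-Nd2, mt-Nd4, mt-Nd6 and mt-Cytb held in all 12 alternatives, and that of mt-Nd5 was lost in 1 fit of all 17 libraries. Leaving out Control PTZ45 replicate 1 gave 11 calls, of which 8 were higher and 7 mitochondrial, from a single PTZ45 library assumed to vary like the PTZ0 libraries. The mitochondrial rRNAs took 5.00% ± 0.23 of the counts in Control PTZ0 (SD, n = 3) and 6.48% ± 0.53 in Control PTZ45 (SD, n = 2), without overlap. The choroid plexus markers, 0 of 10 called, had a median log2 fold change of -2.42, with summed levels of 3554 to 41123 and 3437 to 3809, and the part of either in the result was not tested. The 2 groups were on different lanes, so injection and lane cannot be told apart here.

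Against Sal, mt-Nd6 rose in controls by 0.53 (SE 0.11, adjusted p 0.000518), mt-Nd2 by 0.40 (SE 0.10, adjusted p 0.00331), mt-Nd5 by 0.35 (SE 0.09, adjusted p 0.0196) and mt-Nd4 by 0.32 (SE 0.09, adjusted p 0.0390), where 0.939% of all genes were called higher. This comparison shares the Control PTZ45 libraries with the one before. It also runs from lane 3 to lane 4, so treatment and lane cannot be told apart. Sal libraries lay closer, since Control Sal replicates 2 and 3 had 10075 and 10081 normalized counts of mt-Nd2, against 8553 in replicate 1. Ndufa11, an accessory membrane subunit of complex I, fell from 371.7, 429.7 and 380.6 to 274.1 and 262.9, by 0.55 on the log2 scale (SE 0.14, adjusted p 0.0146), as the 1 nuclear member called, where 0.236% of all genes were called lower. It is rich in G and C, at 58.2% of its exons. After the GC correction mt-Nd6, mt-Nd2, mt-Nd5 and mt-Nd4 were at 0.31, 0.21, 0.17 and 0.13, and Ndufa11 at -0.375. The GC correction left 0 of these 5 calls, and without Control PTZ45 replicate 2 also 0. Without Control Sal replicate 1 or 2 there were 3 and 2 calls, all mitochondrial.

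In CBP-ifKOs the same injection left the mitochondrial genes uncalled, although some were called higher against Sal with the replicate number as a block. Against PTZ0, on the same lane, 0 members were called by DESeq2, with 1 mitochondrial and 3 nuclear members at an unadjusted p under 0.05 and 0 in edgeR, where 0.0872% of all genes were called. mt-Nd6 had 1847, 2216 and 2179 normalized counts in CBP-ifKO PTZ0 and 2406, 2317 and 1973 in CBP-ifKO PTZ45, which overlapped, at a log2 fold change of 0.10. mt-Nd2 was at 0.09, mt-Nd5 at -0.003 and mt-Nd4 at -0.03. mt-Nd1, the one with an unadjusted p under 0.05, was at 0.21, mt-Co1 at 0.14 and mt-Cytb at 0.11. Against Sal, on lanes 4 and 5, treatment and lane cannot be told apart. There mt-Nd1 and mt-Co1 were each at 0.21 (adjusted p 0.471 and 0.763), and the other 5 mitochondrial genes ran from -0.04 in mt-Nd5 to 0.12 in mt-Cytb. Without CBP-ifKO Sal replicate 3, mt-Nd2, mt-Nd4, mt-Nd5, mt-Nd6 and mt-Cytb were at -0.07, -0.17, -0.22, -0.08 and 0.05. Without replicate 1 they were at 0.14, 0.07, 0.08, 0.26 and 0.17. With all libraries and no block 1 member was called against Sal, Uqcrq, a small subunit of complex III, where 0.208% of all genes were called lower. It fell from 472.1, 533.3 and 586.8 to 385.9, 347.9 and 370.2, by 0.53 on the log2 scale (SE 0.13, adjusted p 0.0161). The groups did not overlap, but the call was lost in 8 of 13 alternatives, among them edgeR, the GC correction and leaving out any of the 6 libraries but CBP-ifKO Sal replicate 1, with adjusted p-values from 0.00469 to 0.342.

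**Figure D4:**
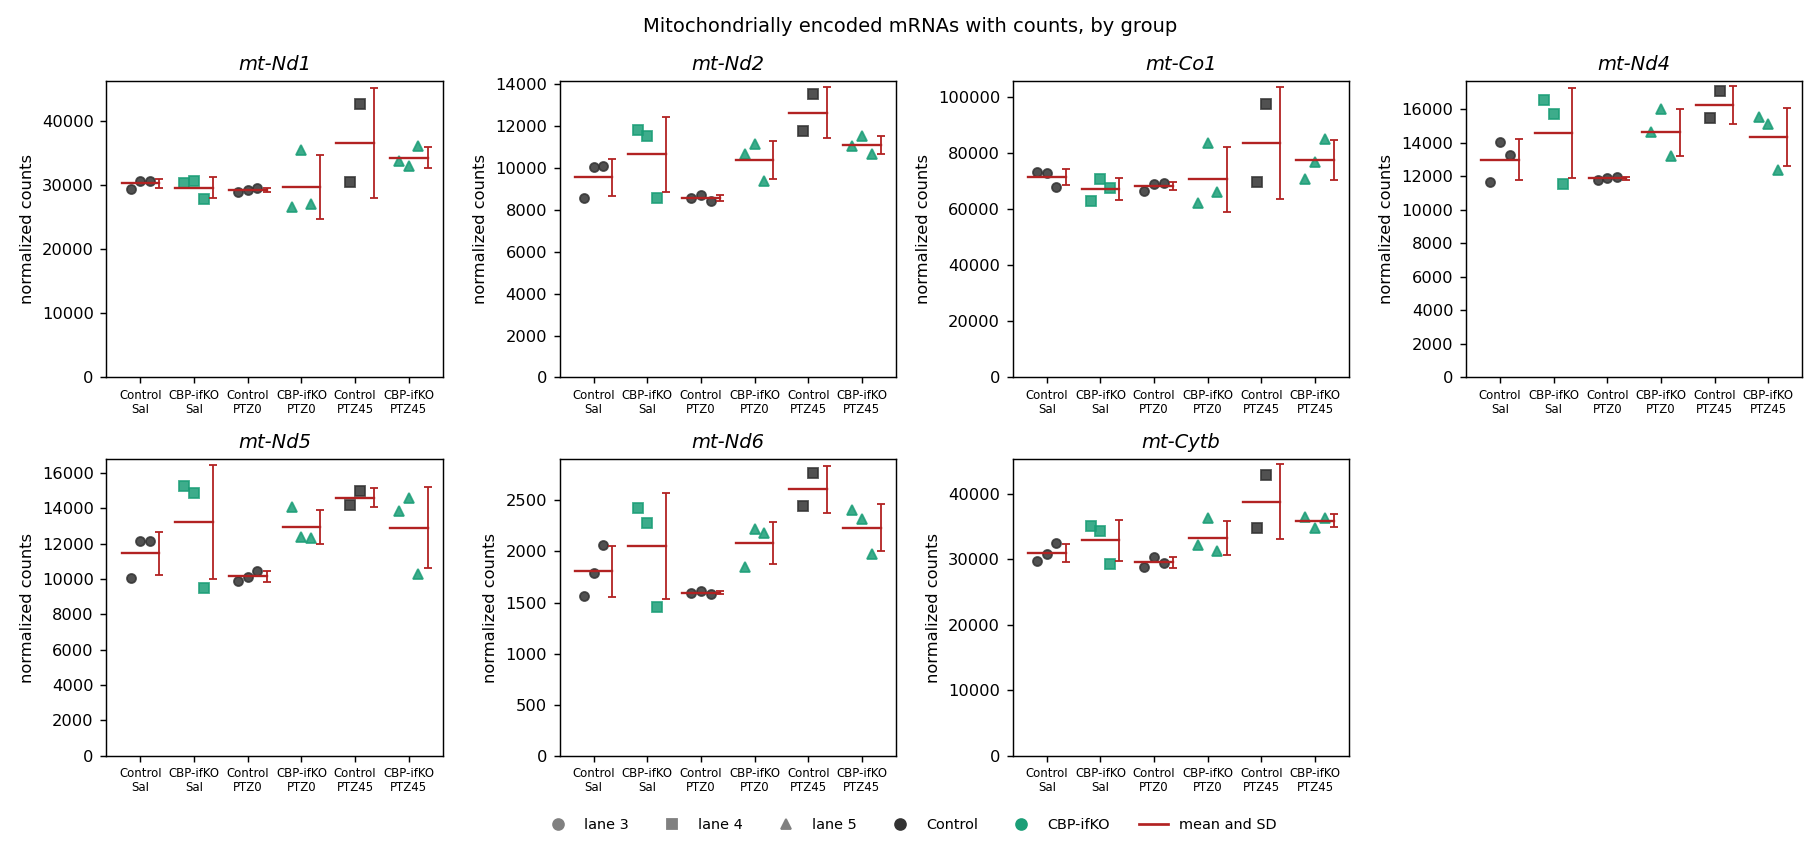
Normalized counts of the 7 mitochondrial genes with counts in each of 17 libraries, by group, with symbols for the lane, colours for the genotype and bars for the mean and SD. The Control PTZ0 libraries are low and alike in mt-Nd2, mt-Nd4, mt-Nd5 and mt-Nd6, and both Control PTZ45 libraries lie above them. CBP-ifKO Sal replicate 3 is the lowest of its group in all of these 4 genes.

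Kindling followed by saline left 0 members called. In controls, on the same lane, 4 mitochondrial and 1 nuclear member had an unadjusted p under 0.05 and edgeR also called 0, where 0.00843% of all genes were called. The 4 mitochondrial genes were mt-Nd2 at -0.16, mt-Nd4 at -0.13, mt-Nd5 at -0.17 and mt-Nd6 at -0.18, and 3 mitochondrial genes were called lower without Control Sal replicate 1. The CBP-ifKO groups lay on lanes 4 and 5, so kindling and lane cannot be told apart there. In these mice 1 nuclear member had an unadjusted p under 0.05 and edgeR called 0, where 0.0112% of all genes were called. mt-Nd2 was at -0.03, mt-Nd5 at -0.03 and mt-Nd6 at 0.02. Without CBP-ifKO Sal replicate 3 these values were -0.17, -0.22 and -0.18, and without replicate 1 they were 0.06, 0.09 and 0.17, with 0 calls in either fit.

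An interaction term asked whether controls and CBP-ifKOs responded differently to PTZ45. Over the Sal and PTZ45 libraries 0 members were called by DESeq2, with 2 mitochondrial and 2 nuclear members at an unadjusted p under 0.05 and 0 in edgeR, where 0.329% of all genes were called. The median was -0.34 over the 7 mitochondrial members and 0.09 over 94 nuclear ones. Without CBP-ifKO Sal replicate 3, mt-Nd2 and mt-Nd6 were called at -0.48 and -0.60, and without replicate 1 there were 0 calls. A further interaction, over the PTZ0 and PTZ45 libraries, was chosen after seeing the data. It called 4 members lower, all mitochondrial, where 0.423% of all genes were called lower.

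In that interaction mt-Nd6 was at -0.61 (SE 0.13, adjusted p 0.0008 by DESeq2), mt-Nd2 at -0.47 (SE 0.10, adjusted p 0.00264), mt-Nd4 at -0.48 (SE 0.12, adjusted p 0.0221) and mt-Nd5 at -0.52 (SE 0.14, adjusted p 0.0394), so their difference between PTZ45 and PTZ0 was larger in controls than in CBP-ifKOs. The control groups lay on lanes 3 and 4 and both CBP-ifKO groups on lane 5, so this interaction and the lane cannot be told apart, and in the interaction over Sal each genotype also changed lane. All 7 mitochondrial members lay below 0, with mt-Nd1 at -0.12, mt-Co1 at -0.15 and mt-Cytb at -0.28 not called, and the nuclear median was 0.08 with 0 of 93 called and 1 at an unadjusted p under 0.05. Without Control PTZ45 replicate 2 none of the 4 was called. mt-Nd6 kept its call in the other 16 alternatives, while after the GC correction and in edgeR it was the single one, and the calls of mt-Nd4 and mt-Nd5 were lost in 8 and 13 of 17. Leaving out Control PTZ0 replicate 1, 2 or 3, or CBP-ifKO PTZ0 replicate 1 or 2, left 2 calls. After the GC correction mt-Nd6, mt-Nd2, mt-Nd4 and mt-Nd5 were at -0.44, -0.315, -0.34 and -0.41.

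**Figure D5:**
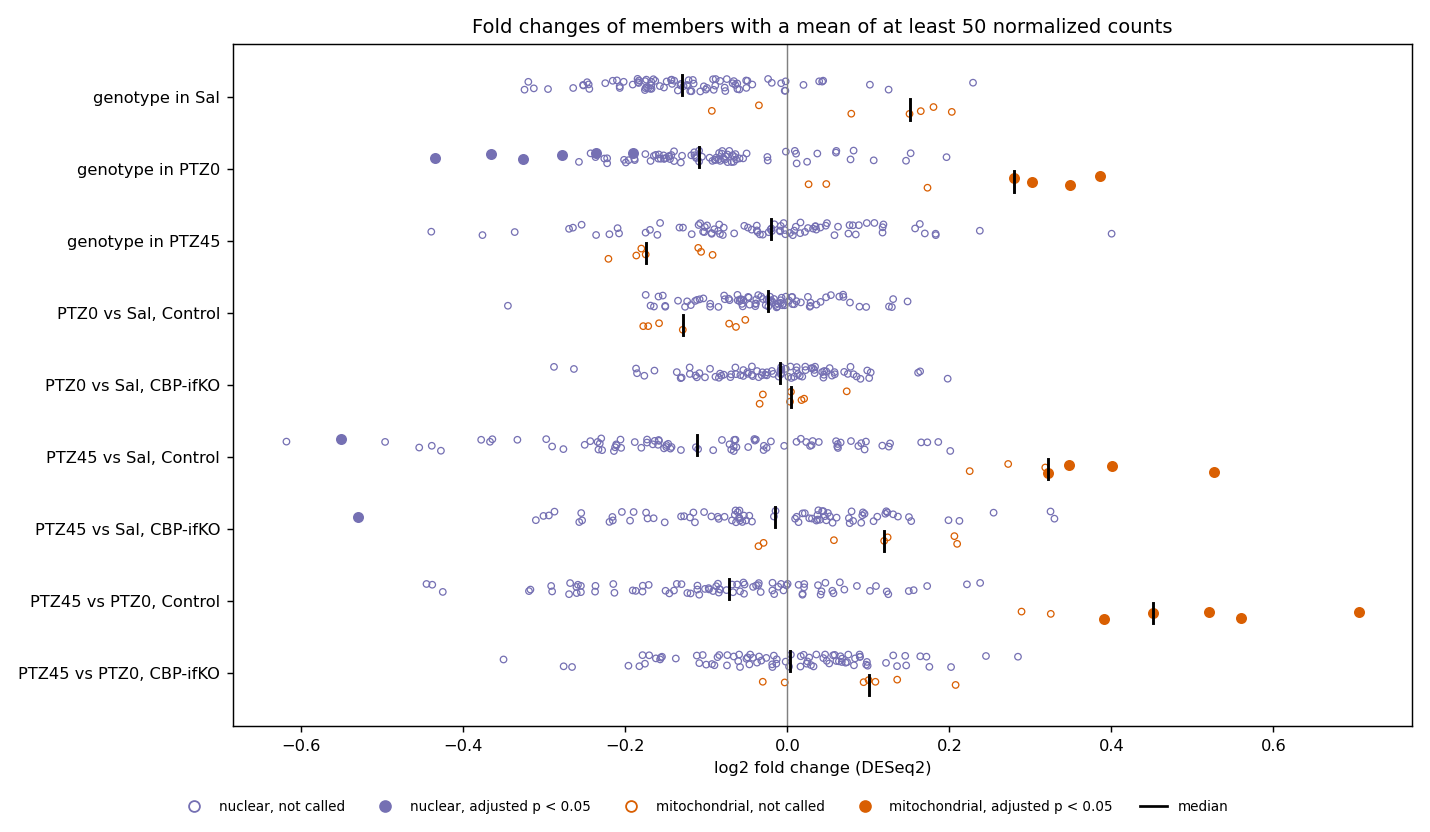
DESeq2 log2 fold changes of the 86 nuclear (violet) and 7 mitochondrial (orange) members averaging 50 normalized counts or more, in 9 pairwise comparisons, with called genes as filled points and the median of each genome as a black bar. The bars are taken over these abundant members only. The mitochondrial genes lie to the right in the PTZ45 comparisons of controls, up to 0.71 in mt-Nd6, and to the left of 0 for the genotype in PTZ45.

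Genes that serve the chain from outside the rule were taken from 2 lists. Of 20 regulators of mitochondrial gene expression, with 19 tested over all treatments, Mtif2, a mitochondrial translation initiation factor, was called higher in CBP-ifKOs, by 0.12 in log2 (SE 0.05, adjusted p 0.0489) and 0 lower, with a list median of 0.03. Among 35 tested genes for cytochrome c and assembly factors, Cox15, Cox16 and Timmdc1 were called higher at 0.20, 0.47 and 0.23, and Ttc19 and Uqcc2 lower at -0.09 and -0.23, with a median of 0.03. These 6 calls stand beside 7.76% of all genes called higher and 11.5% called lower. With the lane as a term all 6 were lost, with adjusted p-values from 0.9993 to 0.9997 by DESeq2. The log2 fold changes were then 0.18 for Mtif2, 0.15 for Cox15, 0.10 for Timmdc1, -0.09 for Ttc19 and -0.10 for Uqcc2. That of Cox16 turned to -0.03. Cox15 makes heme a for complex IV, Timmdc1 assists the assembly of complex I, and Ttc19 and Uqcc2 that of complex III. In the other 11 comparisons 0 genes of either list were called by DESeq2.

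The promoters of the members, which the rule did not use, were searched for 5 short motifs. RefSeq promoters of GRCm38.p6, running from 250 bases before to 50 after a start, were found for 78 of the 97 nuclear symbols and compared with those of 27025 genes, on both strands and with overlapping matches allowed. GCGCATGC, the core of the NRF1 motif, was in 15.4% of the members and 3.05% of all genes. CCGGAAG, a motif of ETS factors such as GABPA, was in 26.9% against 9.93%, and AAGATGGC, a YY1 motif, in 12.8% against 3.19%. TCAAGGTCA, read by estrogen-related receptors, was in 2.6% (2 of 78) against 0.47%. TGACGTCA, the full CRE site read by CREB, to which CBP binds, was in 5.1% (4 of 78) against 2.03%. Ndufa10 and Ndufa11, each called in a comparison above, were among these 4. Of the called genes shown above, Atp5k held both an NRF1 and an ETS match and Ndufa5 none, Sdhb held both and Uqcrh an ETS match, and Cox5b had none of the 5. Promoters of members were also richer in G and C, with a median of 58.4% against 52.8%, and the part of this in the shares was not tested. A match in this window describes the letters and no binding was measured.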

How the data were processed

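Gene counts of 17 hippocampal libraries were analysed. The deposited values were raw counts per gene. The authors trimmed single-end reads of 50 bases with Trim Galore 0.6.4, aligned them with STAR 2.6.1 to GRCm38, kept mapping qualities above 10 and counted exons of the Ensembl annotation with Rsubread. Whether strand was used is not given in the sources used here. One of 18 count columns matched no sample and was not used. Symbols, lengths and GC content came from GENCODE M21, which held 99.6% of the identifiers.

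Members, lists and tests were chosen with earlier results of these data known. As in the study, the DESeq2 Wald test (1.42.0 in R 4.3.3, two-sided) was applied to all genes with at least 1 count. A member was called at a Benjamini-Hochberg adjusted p under 0.05 over all genes tested with independent filtering. Pairs of groups were fitted alone, genotype over all treatments with treatment as a term, and interactions over 11 libraries. Normalized counts are counts divided by DESeq2 size factors over 17 libraries. On simulated data for the genotype in Sal (34191 genes), 92% of 200 genes changed 2-fold were recovered, and 7.07% of the calls were false.

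Named were all mitochondrial members, at most 5 called nuclear members per direction whose mean reached 50 normalized counts, the 2 highest per kb in each complex, tissue isoforms, Crebbp, Esr1 and the rRNAs. Alternatives were edgeR 4.0.16 (quasi-likelihood), TMM, size factors without mitochondrial genes, at least 10 counts in at least 2 libraries, 1 fit of all 17 libraries, the lane as a term, the replicate number as a block, each library left out in turn, a GC correction (loess, span 0.5, fitted to genes averaging 20 counts or more) and, for the ratio, the mean of log2(count + 1) and members with a mean of at least 50. The interaction over PTZ0 was added after seeing the data. One gene is counted among the members and is not reported here by name.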

Additional observations from a re-analysis of the deposited data

Results flagged for a closer look

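In PTZ0 every CBP-ifKO library lay above the mean of its controls, and in PTZ45 every CBP-ifKO library lay below, for the log2 ratio of the genomes and for 5 mitochondrial genes. The difference of the genotypes, as a mean over libraries of log2 values, went from 0.23 to -0.07 for the ratio, a change of 0.301. That of mt-Nd2 went from 0.28 to -0.19, a change of 0.462, that of mt-Nd4 from 0.30 to -0.19 (0.485), that of mt-Nd5 from 0.35 to -0.19 (0.540), that of mt-Nd6 from 0.38 to -0.23 (0.605) and that of mt-Cytb from 0.17 to -0.10 (0.274). The interaction over PTZ0 called the first 4 of these genes and not mt-Cytb, at an adjusted p of 1.0 by DESeq2, and for the ratio the change was not tested. The control mean in PTZ45 rests on 2 libraries, and without Control PTZ45 replicate 2 the difference of the ratio there was 0.101 and none of the 4 genes was called. The genotypes were on different lanes in both treatments.

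Nuclear genes with opposite directions of this kind were Cox4i1, Cox5a, Ndufa11, Sdhb and Uqcrh. The response to PTZ45 over Sal was -0.16 in controls and 0.06 in CBP-ifKOs for Cox4i1 (difference -0.226), 0.14 and -0.22 for Cox5a (0.352) and 0.10 and -0.04 for Uqcrh (0.144). The response over PTZ0 was -0.21 and 0.07 for Sdhb (-0.274). For Ndufa11 the genotypes differed by -0.34 in Sal, -0.14 in PTZ0 and 0.12 in PTZ45 (-0.452 between Sal and PTZ45, -0.262 between PTZ0 and PTZ45), and the response to kindling alone was -0.13 in controls and 0.06 in CBP-ifKOs (-0.190). None of these 5 genes passed in the interactions that were fitted (adjusted p 1.0 in DESeq2 for each), and the difference of Ndufa11 between PTZ0 and Sal was not tested.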

How the results depend on the processing

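With the lane as a term, calls for the genotype over all treatments went from 18 to 0 and the log2 ratio of the genomes from 0.10 to -0.156. Cox5b, Sdhb and Atp5o reversed to 0.022, 0.033 and 0.0065. That fit has as many coefficients as groups, so lane and an interaction of genotype and treatment cannot be told apart in it. In 1 fit of all 17 libraries there was 1 call for the genotype in Sal, 3 in PTZ0, 1 in PTZ45 and 3 for PTZ45 against Sal in controls. The GC correction left 0 calls for PTZ45 against Sal in either genotype and 1 in the interaction over PTZ0, where edgeR also left 1. In edgeR PTZ45 against Sal gave 3 calls in controls and 0 in CBP-ifKOs. The mean of log2 counts moved the ratio for PTZ0 against Sal in controls from -0.0757 to 0.0268. That mean gives mitochondrial genes at 0 the same weight as the others and differed with depth, at -0.896 in CBP-ifKO Sal replicate 1 with 18735643 counts and -0.256 in replicate 2 with 5831992, whose log2 ratios were 1.23 and 1.24, so the change of sign says little of the ratio.

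Same-numbered replicates did not pair, with correlations of their deviations from -0.52 to 0.48 and 8 of 24 above 0.1. With the replicate block there were 6 calls for the genotype in PTZ0, 1 for PTZ45 against Sal in controls and 2 in CBP-ifKOs (both mitochondrial and higher, with Uqcrq lost), and 17 for the genotype over all treatments.

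With each library left out in turn, calls ran from 11 to 27 for the genotype over all treatments, 0 to 14 for Sal, 5 to 11 for PTZ0 and 0 to 1 for PTZ45. They ran from 0 to 6 for PTZ45 against Sal in controls and 0 to 1 in CBP-ifKOs, 0 to 3 for PTZ0 against Sal in controls, 5 to 11 for PTZ45 against PTZ0 in controls and 0 to 1 in CBP-ifKOs, 0 to 2 in the interaction over Sal and 0 to 4 over PTZ0. The ratio ran from 0.0434 to 0.159 for the genotype over all treatments, -0.138 to -0.0356 for PTZ0 against Sal in controls, -0.244 to 0.101 for the genotype in PTZ45, 0.171 to 0.516 for PTZ45 against Sal and 0.247 to 0.592 against PTZ0 in controls, -0.389 to -0.0438 in the interaction over Sal and -0.474 to -0.129 over PTZ0. Over the 43 calls of single genes, the alternatives gave 587 values with the same call, 173 with the call lost and the 3 reversed ones. Control PTZ45, with 2 libraries, has the least certain spread, and isoforms averaging under 50 normalized counts were too shallow for small differences.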

Other observations

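The mitochondrial mRNAs did not move as 1 block, a pattern noticed after the values were seen and given without a test. The sum of mt-Nd2, mt-Nd4, mt-Nd5 and mt-Nd6 divided by the sum of mt-Nd1 and mt-Co1, in normalized counts, was 0.311, 0.367 and 0.381 in Control Sal, 0.334, 0.330 and 0.328 in Control PTZ0 and 0.439 and 0.345 in Control PTZ45. It was 0.495, 0.438 and 0.326 in CBP-ifKO Sal, 0.466, 0.352 and 0.399 in CBP-ifKO PTZ0 and 0.410, 0.397 and 0.292 in CBP-ifKO PTZ45. The Control PTZ0 libraries were nearly alike (SD 0.00259, n = 3), while in CBP-ifKO Sal, also on 1 lane, the SD was 0.0858 (n = 3). The ratio of the rRNAs mt-Rnr1 and mt-Rnr2 ran from 0.142 in Control PTZ0 replicate 3 to 0.202 in CBP-ifKO Sal replicate 2.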
